A study of Mus musculus with 4 samples.

Results

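The 32 genes described here encode NF-kB transcription factors, the proteins that hold them in check and genes that NF-kB switches on. They were chosen by symbol from the 54532 genes of the deposited count table, each symbol matched 1 row, and all 32 passed the filter on low counts. They fall into 5 subunits, 6 members of the IκB inhibitor family, 5 kinases (a class that here includes the kinase scaffold gene Ikbkg), 5 feedback regulators and 11 induced targets. The RNA was from bone marrow neutrophils of wild-type (WT) mice. Neutrophils are short-lived white cells that kill microbes and can release NETs, extracellular traps of chromatin and granule proteins. The control cells received DMSO, a solvent, and the treated cells received Aβ40, the 40-residue amyloid-beta peptide, at 20 µg/ml for 4 h. Each treatment has 2 libraries, called DMSO 1, DMSO 2, Aβ40 1 and Aβ40 2, and all 4 come from WT cells. The labels and design text were the sources used. Mouse strain, age and sex, the way the cells were purified, and whether a group's libraries are from different animals or cultures, are not stated in those sources. The p-values therefore cover the spread between these libraries alone, which may be technical. The series' design text gives the purpose as finding the mechanism of NET release under Aβ40.

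NF-kB factors are dimers of RelA, c-Rel, RelB and the processed products of Nfkb1 (p50) and Nfkb2 (p52). In a resting cell IκB proteins keep the dimers in the cytoplasm. Toll-like and cytokine receptors activate the IκB kinase, which marks IκB for destruction, and the freed dimers enter the nucleus and induce inflammatory and survival genes together with their own brakes, among them Nfkbia and Tnfaip3. In neutrophils the pathway is known for driving cytokine production and prolonging survival. Transcript levels do not measure the location or activity of the NF-kB proteins.

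With Aβ40 none of the 32 genes passed the test across all genes. The largest departures, of Irak2, Tnip1 and Nfkb2, lay below DMSO. Irak2, Tnip1, Nfkb2, Nfkb1, Tnfaip2 and Nfkbiz had the lowest values with an unadjusted p under 0.05, at 0.648 to 0.744 of their DMSO level. Tnip3 and Cd40 lay above DMSO, at 1.38 and 1.37 of it, and Tnip3 also had an unadjusted p under 0.05. On the log2 scale both departed further than Nfkb1, Tnfaip2 and Nfkbiz. Nfkbia, Birc3, Traf1 and Gadd45b, which NF-kB is known to induce, lay at 0.970 to 1.02 of DMSO. Not all such genes did. Of the 11 induced targets, 5 lay below both DMSO libraries in both Aβ40 libraries and 1 above. The same held for 21.9% and 23.2% of all tested genes. In bulk RNA such as this, fewer cells of a type and less RNA per cell cannot be told apart.

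A match to the κB consensus, the DNA motif that NF-kB dimers bind, was found in a larger share of the promoters of these genes than of promoters at large, a difference that was not tested. RefSeq promoter windows of build GRCm38.p6, running from 250 bases before to 50 bases after a transcript start, were at hand for 25 of the 32 genes, but not for Nfkb1, Relb, Nfkbiz, Ikbkb, Cd40, Ehd1 and Slc7a2. The consensus was searched on both strands, and overlapping matches were merged. It occurred in 12 of the 25 (48.0%), against 9.55% of 27025 genes in the table. Matches were found in 2 of 3 subunits, 4 of 5 IκB family members, 0 of 4 kinases, 3 of 5 feedback regulators and 3 of 8 induced targets with a window. By position with Aβ40, 6 of 13 genes with both Aβ40 libraries below both DMSO libraries had a match, as did 5 of 11 with overlapping groups and the single such gene above DMSO with a window, Tnip3. A match is a string of letters, not a measured binding site.

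The 130 bases before the RefSeq start are shown for 5 genes that carry a match but took different positions with Aβ40, so that the sequences can be read beside the values that follow. Capitals mark the κB matches, and each line runs 5′ to 3′ on the strand of the gene. The stretches lie at chr11:23770970-23771099 for Rel and chr12:55492648-55492777 for Nfkbia, both on the minus strand, chr17:45555570-45555699 for Nfkbie on the plus strand, chr11:54962941-54963070 for Tnip1 on the minus strand and chr6:65590268-65590397 for Tnip3 on the plus strand. The Tnip3 stretch lies in an intron of the gene as GENCODE M21 draws it, 65085 bases inside the start of the deposited gene model, and the others lie at or within 23 bases of the deposited starts.
Rel: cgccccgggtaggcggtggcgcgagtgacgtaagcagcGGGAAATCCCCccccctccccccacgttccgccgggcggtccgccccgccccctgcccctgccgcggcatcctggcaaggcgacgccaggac
Nfkbia: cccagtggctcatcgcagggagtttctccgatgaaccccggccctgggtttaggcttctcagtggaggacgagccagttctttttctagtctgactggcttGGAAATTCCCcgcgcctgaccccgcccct
Nfkbie: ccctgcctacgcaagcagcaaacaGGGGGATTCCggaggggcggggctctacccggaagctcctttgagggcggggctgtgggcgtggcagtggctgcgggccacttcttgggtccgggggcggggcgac
Tnip1: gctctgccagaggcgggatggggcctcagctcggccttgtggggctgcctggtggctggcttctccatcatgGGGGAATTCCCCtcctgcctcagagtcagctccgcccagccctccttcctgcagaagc
Tnip3: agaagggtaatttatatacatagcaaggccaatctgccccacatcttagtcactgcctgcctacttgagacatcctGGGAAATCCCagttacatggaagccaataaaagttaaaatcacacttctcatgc
Tnip1 carried the longest of these matches, a run of 12 bases that begins 58 bases before the start, and lay below DMSO. The matches of Tnip3 and Rel began 54 and 92 bases before their starts, and these genes lay above and below DMSO. Nfkbia carried 1 match, beginning 29 bases before its start, and had a log2 fold change of -0.003 (SE 0.19).

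Total counts ran from 17212264 to 19524125 per library, so that 1 count stood for 0.0523 to 0.0585 CPM, the counts scaled to library size with TMM factors. Of the cell type marker lists, the 18 neutrophil markers had the largest sum, between 106000 and 151900 CPM, led by S100a8 and S100a9. These 2 had log2 fold changes of 0.23 (SE 0.25) and 0.38 (SE 0.29). The 18 had a median of 0.07, with 7 negative, 11 positive and 0 called. Both Aβ40 libraries lay below both DMSO libraries for 6 of the 18 (21.9% of all tested genes) and above for 2 (23.2%). DMSO 2 had the lowest share of counts in ribosomal protein genes, 4.91% against 6.94% to 7.65% in the other 3 libraries. Its share for S100a8 and S100a9 was also the lowest, 6.22% against 7.91% to 8.79%. By rank correlation (Spearman) over all tested genes, however, DMSO 1 was the library furthest from the others. Its correlations with them were 0.890 to 0.896, against 0.916 to 0.941 for the pairs among the other 3. Mitochondrially encoded genes took 0.822% in DMSO 1 and 1.15%, 1.71% and 1.21% in DMSO 2, Aβ40 1 and Aβ40 2. Over all 13479 tested genes the median log2 fold change was 0.01, so the scaling placed the groups level.

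The share of all counts that fell on the 32 genes was 0.392% and 0.475% with DMSO (libraries 1 and 2) and 0.356% and 0.361% with Aβ40. DMSO 2 held the highest CPM for 20 of them, DMSO 1 for 9, Aβ40 1 for 3 and Aβ40 2 for 0. The lowest CPM was in Aβ40 1 for 13, in Aβ40 2 for 9, in DMSO 1 for 8 and in DMSO 2 for 2. The map of deviations from each gene's mean shows the same ordering, with red cells mostly in the DMSO columns. Counts of the highest and lowest library over all tested genes were not made. The median log2 deviation of the 32 genes was 0.038 and 0.162 in DMSO 1 and 2 and -0.122 and -0.107 in Aβ40 1 and 2. Over all tested genes it was 0.005, 0.012, 0.023 and 0.013 in the same order. DMSO 2 exceeded DMSO 1 in 22 of the 32 (68.8%), against 50.1% of all tested genes.

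**Figure D1:**
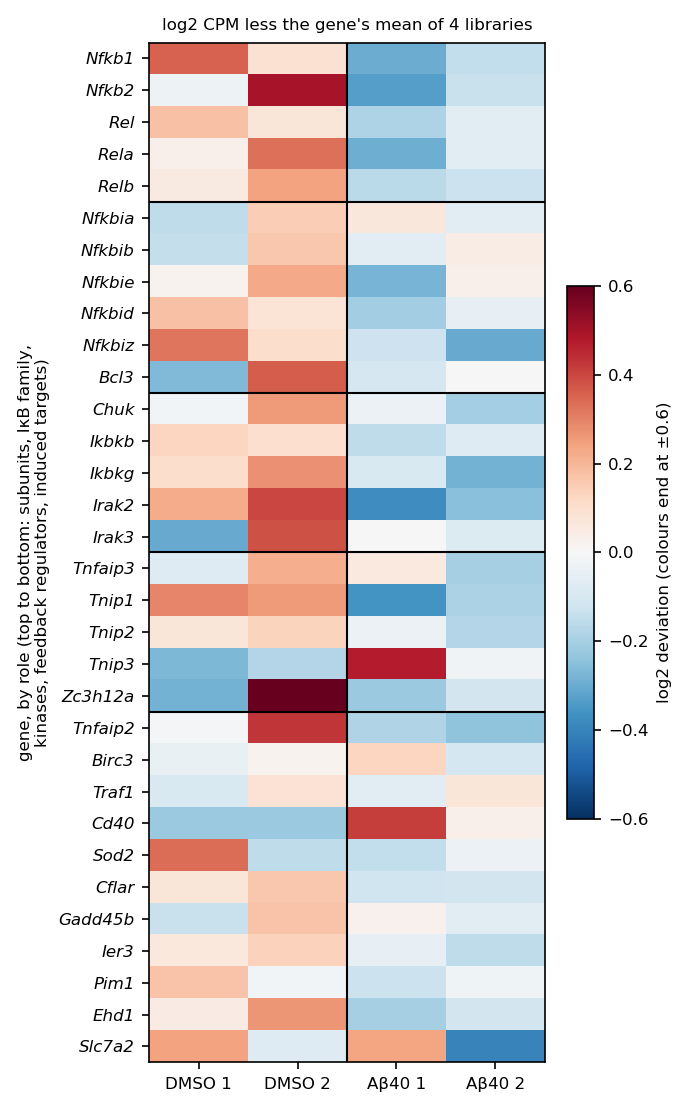
Log2 CPM of each gene in each library, less the gene's mean over the 4 libraries, with genes in rows by role and libraries in columns. DMSO 2 is the highest library for 20 of 32 genes, and Tnip3 and Cd40 are highest in Aβ40 1.

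Both Aβ40 libraries lay below both DMSO libraries for 18 of the 32 genes, where the same held for 21.9% of all tested genes. They lay above for 2 of the 32, Tnip3 and Cd40, against 23.2% of all tested genes, and the groups overlapped for 12. The median log2 fold change was -0.23, and 28 of 32 values were negative, against 48.9% of all tested genes. In the edgeR quasi-likelihood test with Benjamini-Hochberg adjustment 0 of the 32 were called lower (background 0.0%) and 0 higher (background 0.126%), with adjusted p-values from 0.267 to 0.996. At an unadjusted p under 0.05 there were 6 lower, where 5.72% of all tested genes passed, and 1 higher, where 6.51% passed. DESeq2 called 0 of the 32 (background 1.15%) and gave no adjusted p-value for Slc7a2. Limma on log2 FPKM called 0 of the members and 0 of all genes, with Slc7a2 included only where no filter was used. With 2 libraries against 2, an exact permutation test of a single gene cannot go below p = 0.333 (2-sided). The 95% confidence intervals of 29 genes lay within a 2-fold change in either direction, the exceptions being Irak2, Zc3h12a and Slc7a2.

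**Figure D2:**
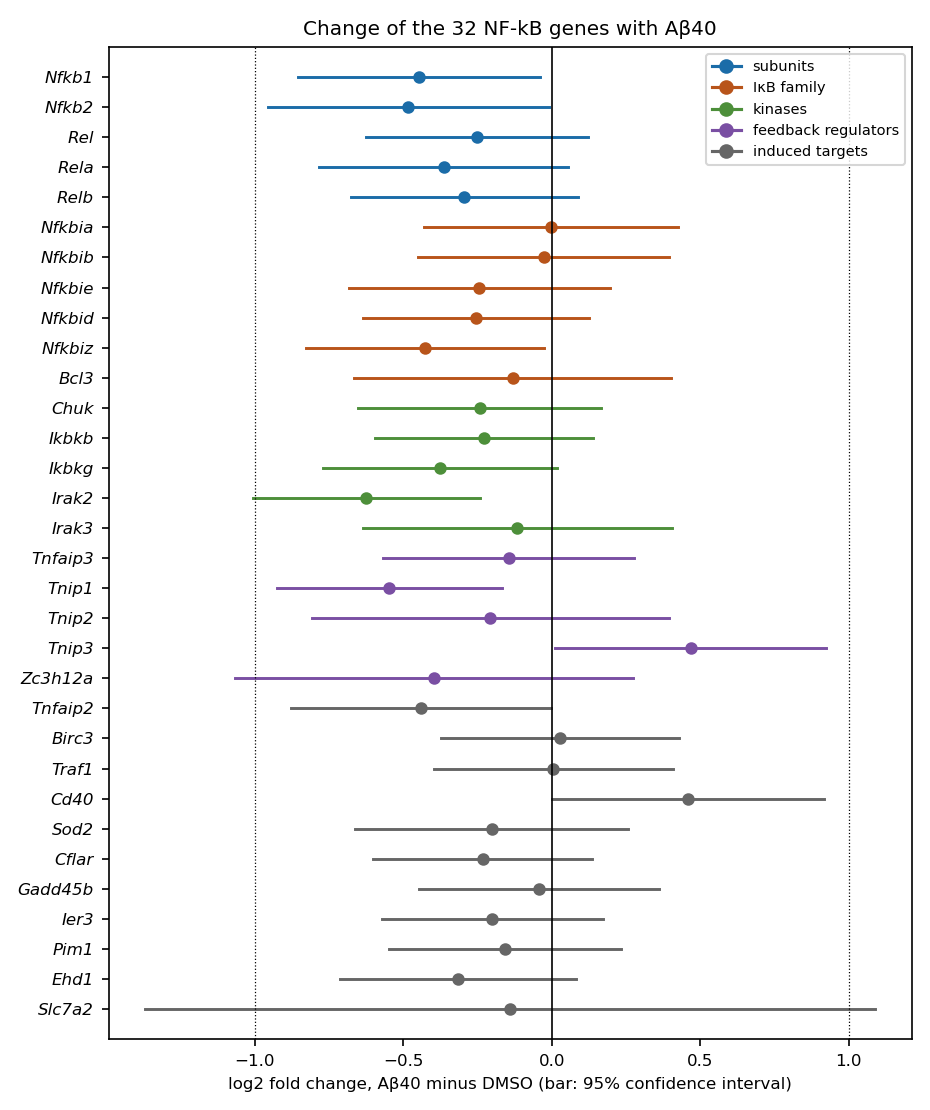
Log2 fold change (Aβ40 minus DMSO, 2 libraries each) with its 95% confidence interval for each of the 32 genes, coloured by role; dotted lines mark 2-fold changes. All 5 subunits lie below 0, from -0.48 to -0.25, and Tnip3 and Cd40 lie furthest above it, at 0.47 and 0.46.

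The 5 subunit genes lay lower with Aβ40 in every pairing of an Aβ40 with a DMSO library, as did 21.9% of all tested genes. Their median log2 fold change was -0.36 and 0 of 5 were called, where 0.0% of all tested genes were called lower and 0.126% higher. Nfkb1 (ENSMUSG00000028163, mm10 chromosome 3, 135584655 to 135691547), the gene of p105 and p50, was at 293 and 245 CPM in DMSO 1 and 2 and at 187 and 207 CPM in Aβ40 1 and 2. The DMSO mean was 269 ± 34.1 CPM and the Aβ40 mean 197 ± 14.3 CPM (SD, n = 2 per group). On the log2 scale the difference was -0.45 (SE 0.18; edgeR adjusted p = 0.376). The 2 groups did not overlap, and DMSO 1 was the highest library. Nfkb2 (ENSMUSG00000025225, chromosome 19, 46304737 to 46312090), which encodes p100 and p52 of the non-canonical branch, was at 93.3 and 134 CPM with DMSO and 75.8 and 87.0 CPM with Aβ40. Here the high library was DMSO 2, and the log2 fold change of -0.48 (SE 0.21; edgeR adjusted p = 0.403) became -0.21 against DMSO 1 alone and -0.73 against DMSO 2 alone. Thus the 2 genes of the precursor subunits were high in different control libraries.

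Rela (ENSMUSG00000024927, chromosome 19, 5637483 to 5648130), the gene of the main activating subunit p65, was at 81.0 and 99.9 CPM with DMSO and 64.9 and 75.7 CPM with Aβ40. Its log2 fold change was -0.36 (SE 0.18), or -0.51 without DMSO 1 and -0.22 without DMSO 2. Rel, encoding c-Rel of myeloid and lymphoid cells, was at 148 and 138 CPM against 115 and 125 CPM, a log2 fold change of -0.25 (SE 0.17). Relb, the partner of p52, was at 81.1 and 92.4 CPM against 69.8 and 71.6 CPM, a log2 fold change of -0.29 (SE 0.17). The gap between the lowest DMSO and the highest Aβ40 library was narrow in these 3 genes, with Rela the narrowest of them. It was narrow in Nfkb2 too, at 93.3 CPM in DMSO 1 and 87.0 CPM in Aβ40 2. All 5 subunits had a negative value in the 13 other analyses listed under processing and with a crossed pairing of the libraries. These analyses reuse the same libraries, in which the groups did not overlap, so the shared sign largely follows from that.

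Per gene length the subunits stood close together. In the deposited FPKM, which divide the counts by gene length and library depth, Rela made up 24.2% and 26.2% of the summed subunit signal in DMSO 1 and 2 and 24.9% and 26.1% in Aβ40 1 and 2. Nfkb2 took 23.0% and 29.1% with DMSO and 24.0% and 24.8% with Aβ40, and Nfkb1 took 19.7% and 14.5% against 16.2% and 16.1%. For each of these 3 the Aβ40 shares lay inside the range of the DMSO shares. The share of Relb was 16.9% and 17.0% with DMSO and 18.8% and 17.3% with Aβ40, higher in both Aβ40 libraries. The summed FPKM of the 5 was 122.7 and 139.5 with DMSO and 94.2 and 105.5 with Aβ40, so the total was lower in both Aβ40 libraries than in both controls. That sum was not tested.

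**Figure D3:**
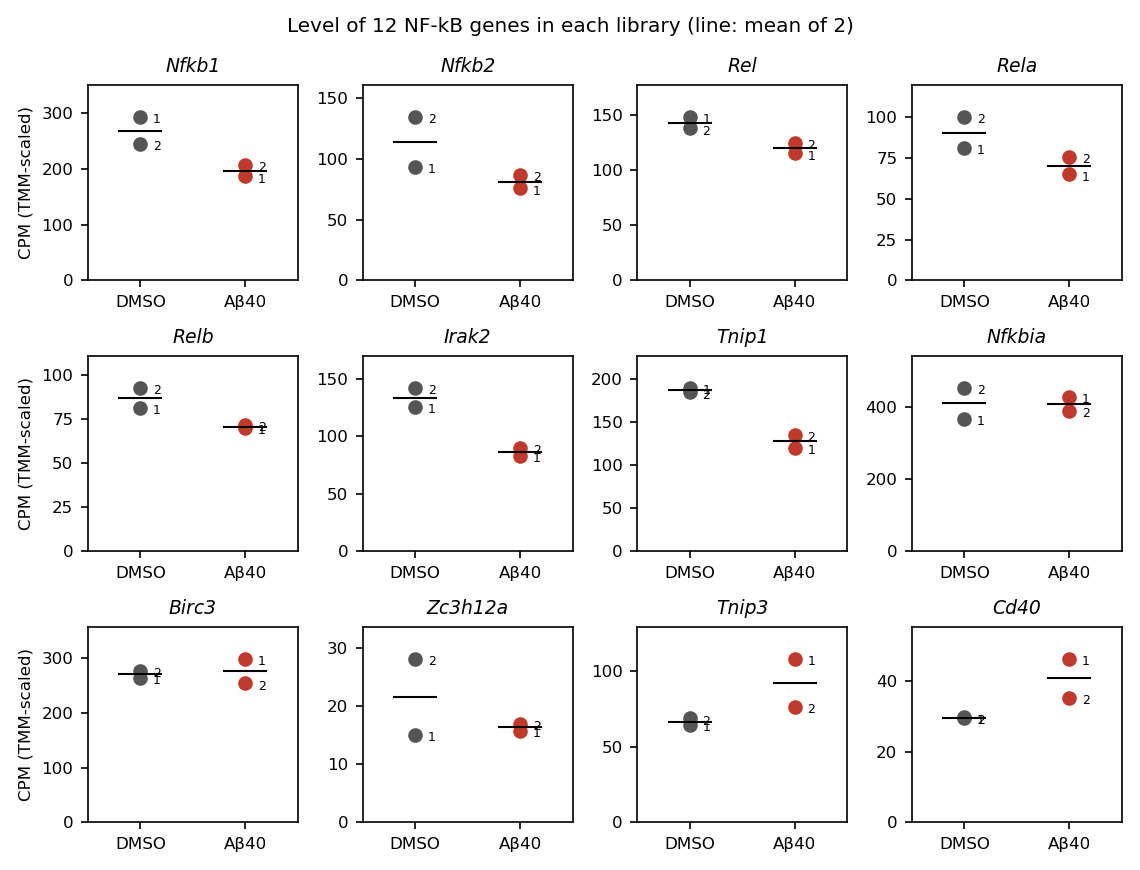
CPM of 12 of the genes in each library (points, numbered by replicate; lines, means of 2), with every axis starting at 0. The 5 subunits, Irak2 and Tnip1 have both Aβ40 points below both DMSO points (21.9% of all tested genes do), Nfkbia and Birc3 overlap, and the Zc3h12a mean with DMSO rests on DMSO 2.

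In the IκB family 2 of 6 genes lay below both controls, near the 21.9% of all tested genes. The median log2 fold change was -0.19 and 0 of 6 were called. Nfkbia (ENSMUSG00000021025, chromosome 12, 55489410 to 55492647) encodes IκBα, the inhibitor that NF-kB induces to end its own signal. It was at 367 and 451 CPM with DMSO and 427 and 389 CPM with Aβ40. Both Aβ40 libraries fell between the DMSO libraries, and the 95% interval of the log2 fold change ran from -0.43 to 0.42. Nfkbib, encoding IκBβ, was likewise enclosed, at 46.0 and 56.8 CPM against 48.4 and 52.4 CPM. The interval of Nfkbib, from -0.45 to 0.39, was of similar width.

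Nfkbiz (ENSMUSG00000035356, chromosome 16, 55811375 to 55838899) encodes IκBζ, a nuclear IκB that helps p50 dimers turn on secondary response genes. It was at 258 and 222 CPM with DMSO and 190 and 168 CPM with Aβ40, a log2 fold change of -0.43 (SE 0.18; edgeR adjusted p = 0.389). Its groups did not overlap, and those of Nfkbid, the gene of the nuclear inhibitor IκBNS, did not either, at 95.4 and 89.3 CPM against 73.0 and 81.6 CPM. Nfkbie, encoding IκBε, was at 44.6 and 51.4 CPM against 36.1 and 44.9 CPM, with Aβ40 2 just above DMSO 1. Bcl3, a nuclear IκB that binds p50 and p52 dimers, was at 28.7 and 44.4 CPM against 32.2 and 34.5 CPM. DMSO 2 alone was high for Bcl3, and the log2 fold change was 0.20 against DMSO 1 and -0.41 against DMSO 2.

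Nfkbia was also the most abundant of the 32 genes per gene length, at 227 and 279 FPKM with DMSO and 261 and 239 FPKM with Aβ40, and its range did not meet that of any other member. It made up 62.0% and 66.1% of the IκB family's summed FPKM in the DMSO libraries and 69.6% and 66.6% in the Aβ40 libraries. Nfkbiz took 14.0% and 10.5% with DMSO and 9.90% and 9.22% with Aβ40. Both Aβ40 shares of Nfkbia lay above both DMSO shares and both of Nfkbiz lay below, by margins smaller than the gap between the DMSO libraries. Ier3, Gadd45b, Pim1 and Ehd1 followed in order of level, with mean FPKM from 104 to 67.6 and ranges that overlapped from each to the next. Traf1, Ikbkb, Tnip2 and Slc7a2 came last, at mean FPKM of 5.68, 4.70, 2.77 and 0.175, and their ranges did not overlap. FPKM divide by the whole deposited gene length, 19078 bases for Ikbkb, so a gene with a long model gets a low value whichever transcript is used.

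**Figure D4:**
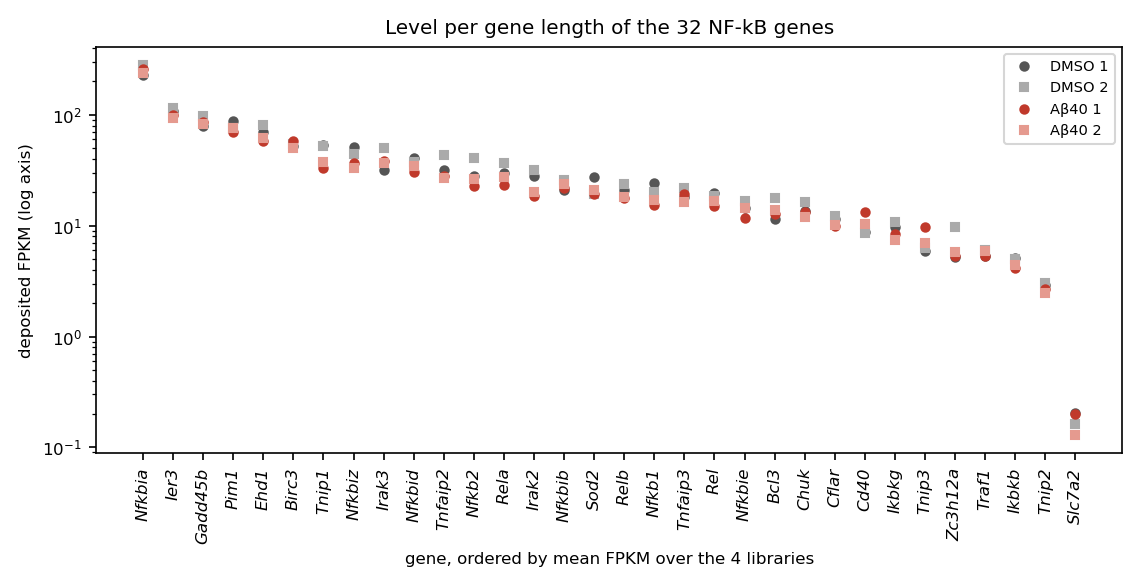
Deposited FPKM of the 32 genes in each library on a log axis, ordered by mean. Nfkbia stands above all others at 227 to 279 FPKM, and Slc7a2 lies lowest at 0.130 to 0.205 FPKM.

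All 5 kinase genes had negative values (48.9% of all tested genes) and 4 of the 5 had both Aβ40 libraries below both controls (21.9% of all tested genes), with a median log2 fold change of -0.24 and 0 called. Irak2 (ENSMUSG00000060477, chromosome 6, 113638467 to 113695026), an IRAK family gene whose protein carries signals of Toll-like and interleukin-1 receptors, had the largest departure of the 32 genes. It was at 125 and 142 CPM in DMSO 1 and 2 and at 83.1 and 90.2 CPM in Aβ40 1 and 2. Every Aβ40 value lay well under every DMSO value, with means of 134 ± 11.6 and 86.6 ± 5.03 CPM (SD, n = 2 each). The log2 fold change was -0.62 (SE 0.17; edgeR adjusted p = 0.267), and over the 13 other analyses it ran from -0.71 to -0.55 with adjusted p-values from 0.00254 to 0.997. Irak3, the gene of IRAK-M, a relative without effective kinase activity that restrains the same receptors, was at 116 and 187 CPM against 144 and 136 CPM. Its Aβ40 libraries fell between the controls, and the sign turned on the control, with 0.25 against DMSO 1 and -0.42 against DMSO 2.

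The 3 genes of the IκB kinase complex lay slightly lower. Ikbkg, encoding the scaffold NEMO, was at 79.0 and 88.8 CPM with DMSO and 69.0 and 60.4 CPM with Aβ40, a log2 fold change of -0.38 (SE 0.17). Ikbkb, the catalytic subunit of the canonical branch, was at 98.4 and 96.7 CPM against 81.1 and 85.4 CPM, and Chuk, the catalytic subunit that also serves the non-canonical branch, was at 69.8 and 84.2 CPM against 68.9 and 61.1 CPM. For Chuk the nearest libraries of the groups differed by less than 1 CPM. Ikbkg overlaps G6pdx, on the opposite strand with 248% of its mean count, and Irak3, Nfkbib and Nfkb2 overlap Tmbim4, Sirt2 and Psd, also opposite, with 75.9%, 85.1% and 10.8% of theirs. Whether counting used strand is not stated in those sources, so reads in the stretches these pairs share may not have been told apart. The length of those stretches was not measured.

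The 5 feedback regulators lay on both sides of DMSO, 4 negative and 1 positive, with a median log2 fold change of -0.21 and 0 called. Tnip1 (ENSMUSG00000020400, chromosome 11, 54910785 to 54962917) encodes ABIN1, which brings the ubiquitin-editing enzyme A20 to its targets. It was at 189 and 184 CPM with DMSO and 120 and 135 CPM with Aβ40. The DMSO libraries were closely matched and both Aβ40 libraries lay far below them, with a log2 fold change of -0.55 (SE 0.17; edgeR adjusted p = 0.324). The value ran from -0.65 to -0.47 over the 13 other analyses, with adjusted p-values from 0.0227 to 0.997. Tnip3 (ENSMUSG00000044162, chromosome 6, 65525313 to 65634040), encoding the related A20-binding protein ABIN3, was at 64.5 and 68.8 CPM with DMSO and 108 and 76.6 CPM with Aβ40. Aβ40 1 was the high library, and the log2 fold change of 0.47 (SE 0.20; edgeR adjusted p = 0.401) was 0.20 without it. Of the summed FPKM of the feedback regulators, Tnip1 took 62.5% and 55.8% with DMSO and 47.4% and 54.5% with Aβ40.

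Tnfaip3, the gene of A20 itself, was at 130 and 160 CPM with DMSO and 143 and 119 CPM with Aβ40, so the groups overlapped (log2 fold change -0.14, SE 0.19). Leaving out 1 library moved the Tnfaip3 value from -0.287 without DMSO 1 to -0.004 without DMSO 2. Tnip2, encoding ABIN2, was scarce at 7.88 and 8.23 CPM against 7.31 and 6.64 CPM, from 125 to 153 counts per library. Zc3h12a, which encodes Regnase-1, a ribonuclease that destroys inflammatory messenger RNAs, was at 15.1 and 28.1 CPM against 15.7 and 17.0 CPM. DMSO 2 alone set the Zc3h12a mean of the controls: the log2 fold change was -0.40 (SE 0.30) in the whole data, -0.78 against DMSO 2 and 0.11 against DMSO 1.

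Among the 11 induced targets 5 lay below both controls (21.9% of all tested genes), 1 above (23.2%), and 5 overlapped, with a median log2 fold change of -0.16 and 0 called. Tnfaip2, a gene first known for its induction by TNF, was at 161 and 218 CPM with DMSO and 142 and 136 CPM with Aβ40, a log2 fold change of -0.44 (SE 0.19; edgeR adjusted p = 0.406). Against DMSO 1 alone this was -0.22 and against DMSO 2 alone -0.65. Ehd1, an ATPase of endocytic recycling, was at 259 and 301 CPM against 218 and 232 CPM. Cflar, encoding the caspase-8 inhibitor c-FLIP, was at 147 and 156 CPM against 128 and 129 CPM. Ier3, an immediate early gene of stress and survival, and the survival kinase gene Pim1 lay below both controls by less, with log2 fold changes of -0.20 (SE 0.16) and -0.16 (SE 0.17). Pim1 was at -0.06 without DMSO 1 and -0.26 without DMSO 2.

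Birc3, Traf1 and Gadd45b did not separate the groups. Birc3, the gene of the ubiquitin ligase cIAP2, was at 265 and 277 CPM with DMSO and 299 and 254 CPM with Aβ40. Traf1, an adaptor of TNF receptors, was at 47.4 and 53.6 CPM against 48.1 and 53.1 CPM. Gadd45b, a stress sensor upstream of MAP kinases, was at 125 and 155 CPM against 140 and 132 CPM. The 95% intervals of the log2 fold change were -0.37 to 0.43, -0.40 to 0.41 and -0.45 to 0.36, so a 2-fold rise lay outside each of them. The sign of Birc3 and Traf1 turned negative when libraries were scaled by their size alone, and that of Traf1 also with median-ratio scaling, with DESeq2, without the filter on low counts and on log2 FPKM.

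Sod2, the mitochondrial superoxide dismutase gene, was at 275 and 196 CPM with DMSO and 196 and 212 CPM with Aβ40, with DMSO 1 alone standing high. Slc7a2, a transporter of cationic amino acids, was near the floor of the assay with 23 to 35 counts per library, and its 95% interval from -1.37 to 1.09 holds a 2-fold change in either direction. Cd40 (ENSMUSG00000017652, chromosome 2, 165055627 to 165072948), a costimulatory receptor of B cells and of other antigen-presenting cells, was at 29.7 and 29.6 CPM with DMSO and 46.2 and 35.3 CPM with Aβ40. The DMSO libraries were almost equal, both Aβ40 libraries were higher, and the log2 fold change was 0.46 (SE 0.20; edgeR adjusted p = 0.410), or 0.25 without Aβ40 1.

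The tested markers of B cells, eosinophils and T and NK cells all had positive values, where 48.9% of all tested genes were negative. Erythroid and monocyte markers had values of either sign. The 18 B cell markers had a median log2 fold change of 1.60, and 6 of 18 were called higher, against 0.126% of all tested genes. Their summed level was 611 and 708 CPM with DMSO and 1392 and 1406 CPM with Aβ40, and Cd79a, a chain of the B cell receptor, rose from 18.9 and 18.0 CPM to 57.0 and 63.3 CPM (edgeR adjusted p = 0.0282). Cd79b, Fcrla and Vpreb3 also rose. The called genes of the next 3 lists were Ear6, Ccr7 and Gzmb. Eosinophil markers (median 1.20, 1 of 10 called) summed to 1687 and 1405 CPM against 3684 and 3742 CPM, and markers of dendritic cells (median 0.64, 1 of 12 called) to 363 and 395 CPM against 706 and 695 CPM. T and NK cell markers (median 1.23, 1 of 15 tested called) summed to 123 and 118 CPM against 178 and 188 CPM. Monocyte and macrophage markers had a median of 0.28, basophil and mast cell markers of 0.72 and erythroid markers of -0.04, with 0 called in each. No marker in these lists was at 0 in all libraries. The part of such cells in the values of Cd40, Tnip3 and the other members was not tested.

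The 2 control libraries gave different sets of genes when used alone. Against DMSO 2 alone, without DMSO 1, 5 of the 32 were called lower, Nfkb2, Irak2, Tnip1, Tnfaip2 and Zc3h12a, where 3.29% of all tested genes were. Against DMSO 1 alone, without DMSO 2, 4 were called lower, Nfkb1, Tnip1, Nfkbiz and Irak2, where 3.28% were. Irak2 and Tnip1 were called against either control. Irak2 was at -0.71 and -0.55 (edgeR adjusted p = 0.00254 and 0.0393) and Tnip1 at -0.53 and -0.58 (adjusted p = 0.0362 and 0.0227). In these fits the spread comes from the Aβ40 pair alone and the lone control is assumed to vary like it, and calls over all genes grew from 17 higher and 0 lower to 805 and 471 without DMSO 1 and to 555 and 469 without DMSO 2. Without either Aβ40 library 0 of the 32 and 0 of all genes were called. Values were negative against each control taken alone for 20 genes, among them all 5 subunits and the 3 IκB kinase genes. They were positive against each for 2, Cd40 and Tnip3. Both comparisons use the same 2 Aβ40 libraries, and the 20 include the 18 genes with both Aβ40 libraries below both controls (21.9% of all tested genes). The share of all tested genes with a negative value against each control was not computed. The plot of the change against each control shows the other 10 genes, with Zc3h12a, Irak3 and Bcl3 furthest apart.

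**Figure D5:**
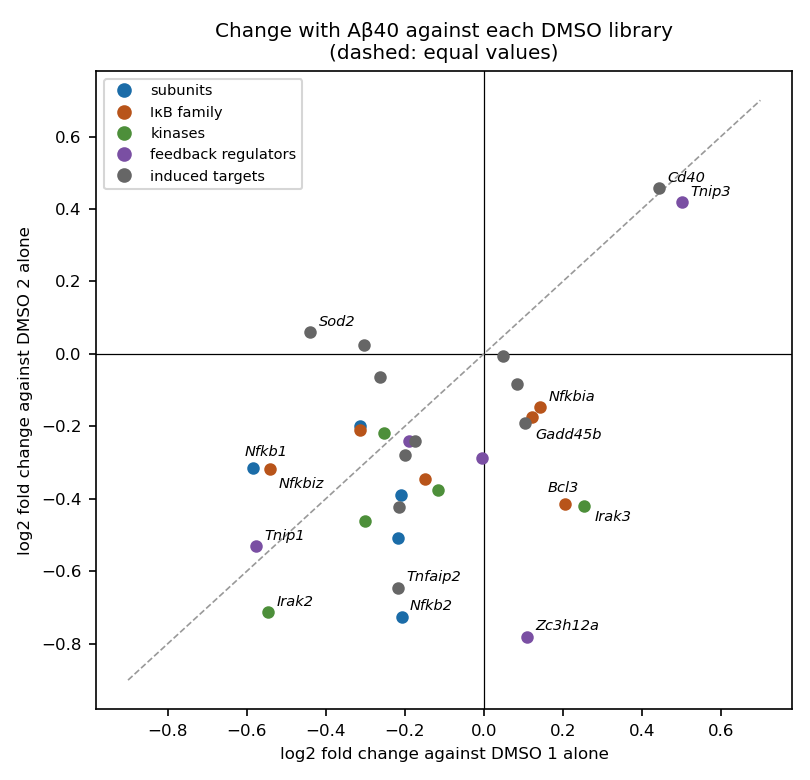
Log2 fold change of the 32 genes with Aβ40 (2 libraries) against DMSO 1 alone (horizontal axis) and against DMSO 2 alone (vertical axis), coloured by role. Irak2 and Tnip1 lie low on both axes, while Zc3h12a is at 0.11 against DMSO 1 and -0.78 against DMSO 2.

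The difference between the group means exceeded the gap within each pair of libraries for 15 of the 32 genes (46.9%) and for 31.9% of all tested genes, on the log2 CPM scale. For the 32 genes the DMSO libraries lay a median of 0.21 apart and the Aβ40 libraries 0.14, against a median difference between groups of 0.24. Over all tested genes these medians were 0.34, 0.23 and 0.29.

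Other genes of the pathway gave no call. Of 45 adaptors, kinases and ubiquitin enzymes that feed NF-kB, 30 had negative values, and the median log2 fold change was -0.08 with 0 called. Of the 45, 16 lay below and 7 above both controls, where 21.9% and 23.2% of all tested genes did. At an unadjusted p under 0.05 there were 7 lower and 0 higher, against 5.72% and 6.51% of all tested genes. The most abundant were Tax1bp1, an A20 partner, at 0.23 (SE 0.19), and Ikbke, a kinase related to the IκB kinases, which was at 310 and 226 CPM with DMSO and 158 and 192 CPM with Aβ40. Of 44 tested cytokine, adhesion, survival and other NF-kB targets outside the 32, 24 were negative, and the median log2 fold change was -0.01 with 0 called. Of the 44, 8 lay below and 11 above both controls, near the shares over all tested genes, and at an unadjusted p under 0.05 there were 2 lower and 5 higher. The most abundant of these were Lcn2, an iron-binding granule protein, at 0.12 (SE 0.21), and Cd44, an adhesion receptor, at -0.36 (SE 0.21). Whether the lists differ from each other was not tested.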

How the data were processed

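RNA sequencing libraries of mouse bone marrow neutrophils, 2 with DMSO and 2 with Aβ40, were compared. Build mm10 and the tools featureCounts 1.5.0-p3 and HISAT2 2.0.5 are listed, without roles, in the submitters' processing notes. The authors deposited whole-number read counts per gene and FPKM. The deposited FPKM equal the counts over gene length and over a library size proportional to DESeq2 size factors, as checked on the values. Counts were fitted in R 4.3.3 with edgeR 4.0.16 (filterByExpr, 13479 genes kept, TMM, glmQLFit and glmQLFTest, intercept and group, 2-sided, Benjamini-Hochberg over all genes tested). Genes with an adjusted p below 0.05 were called. The fit had 2 residual degrees of freedom and a biological coefficient of variation of 0.210 in common. SE and 95% intervals come from that fit, which was tested on simulated data. SD are over 2 libraries. Alternatives used DESeq2 1.42.0 and limma 3.58.1, the latter on log2(FPKM + 1) or log2(FPKM + 0.1) with a mean of at least 1 FPKM or no filter. The others were median-ratio scaling, library size alone, no filter on counts, a mean count of at least 10, the replicate number as a block and leaving out each library, 13 in all.

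The members and lists were chosen with earlier results of these data known, and no list test was run. All 32 members are named. From each other list the rule names up to 4 called genes, or the 2 most abundant where none was called. For monocyte, basophil and erythroid markers the text gives medians only. Replicate numbers do not pair the libraries in the labels.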

Additional observations from a re-analysis of the deposited data

How the results depend on the processing

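The median log2 fold change of the 32 genes stayed negative in all 14 other analyses of the same libraries, from -0.28 to -0.20. Of 446 single values, 421 kept their sign. The 25 that reversed belong to 10 genes, and 0 of the 32 genes, reversing or not, were called in the whole data. Traf1 was at -0.004 with median-ratio scaling, -0.051 with library size alone, -0.009 with DESeq2, -0.003 without the filter on counts, and -0.008, -0.009 and -0.008 on log2(FPKM + 1), log2(FPKM + 0.1) and unfiltered log2(FPKM + 1), and Birc3 was at -0.027 with library size alone. Leaving out 1 library at a time gave ranges of -0.147 to 0.142 for Nfkbia, -0.175 to 0.121 for Nfkbib, -0.415 to 0.205 for Bcl3, -0.42 to 0.254 for Irak3, -0.78 to 0.109 for Zc3h12a, -0.095 to 0.12 for Birc3, -0.088 to 0.083 for Traf1, -0.439 to 0.06 for Sod2, -0.19 to 0.105 for Gadd45b and -0.491 to 0.126 for Slc7a2. Over all genes, calls went from 17 higher and 0 lower to 93 and 36 with DESeq2 and to 185 and 70 without the filter on counts. Library size alone gave 1 lower, and the 3 limma analyses of FPKM gave 0 higher. Leaving out 1 library gave 0 to 805 higher and 0 to 471 lower, with 0 to 5 of the 32 called lower; both upper ends are without DMSO 1. The cause was not tested. The labels do not pair the libraries by number, and deviations of the same-numbered libraries correlated at r = -0.187 across genes. With the replicate block 27 genes were higher, Nfkbia was at 0.003 and 0 of the 32 were called. A crossed pairing, chosen after seeing the data, called 445 genes higher, 276 lower and 2 of the 32 lower, with Nfkbia at 0.003. The number of libraries, 2 a group, limits the precision.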

Other observations

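Several genes of the wider NF-kB network, named after their values were seen, departed further than most of the 32. Cd83, an activation marker of B cells and dendritic cells, was at 31.3 and 32.6 CPM in the DMSO libraries and 80.2 and 69.0 CPM in the Aβ40 libraries, a log2 fold change of 1.22 (SE 0.18) that missed the threshold in the edgeR quasi-likelihood test (adjusted p = 0.0587). Il6, a cytokine gene, was at 30.2 and 21.2 CPM against 52.9 and 40.5 CPM. Marcksl1, a relative of the protein kinase C substrate MARCKS, lay the other way, at 663 and 653 CPM against 412 and 468 CPM. Upstream of NF-kB, the receptor-linked kinase gene Irak4 was at 56.8 and 54.5 CPM against 33.9 and 40.5 CPM. Its relative Irak1 was at 42.6 and 53.8 CPM against 34.0 and 33.5 CPM. Irak1, Irak2 and Irak4 lay below both controls, as did 21.9% of all tested genes. Irak3 fell between controls that were themselves far apart, at 116 CPM in DMSO 1 and 187 CPM in DMSO 2. N4bp1, an inhibitor of NF-kB signalling, was at 247 and 229 CPM against 159 and 168 CPM. None of these genes was called.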
